A study of Homo sapiens with 4 samples.

Results

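Aminoacyl-tRNA synthetases are the enzymes that load each amino acid onto its tRNA. The 38 genes examined were 20 for enzymes that work in the cytosol, 16 for enzymes of mitochondria and 2 for AIMP1 and AIMP2, which are scaffold proteins. All 38 were found among the 34555 named genes of the deposited table, through 71 of its 65423 transcripts, and the transcript with the most counts stood for each gene. RNA was sequenced from MDA-MB-231, a triple-negative human breast cancer cell line, and from MDA-MB-231-LM2 (LM2), its subline with high lung metastatic ability. The parental cells grew in L-15 medium under plain air and LM2 cells in DMEM under air with CO2, each with 10% serum, so the effect of medium and gas and that of the line cannot be told apart. The labels list 2 samples of each line, but the table gives each line a single column, and no source used here says if that column pools them. The comparison therefore had no replicate check, and no p-value was computed.

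The column totals were 130689252 counts for parental cells and 128985870 for LM2. Every ratio below divides the LM2 count by the parental count, each taken relative to its total. Its 95% interval is an exact Clopper-Pearson interval and reflects counting error, not the spread between cultures. Levels are given as RPKM, the count of a transcript relative to its length and to the column total, which allows genes of different length to be compared. The defining markers were those of a mesenchymal-like cell without hormone receptors. VIM (vimentin) had 153536 counts in parental and 262027 in LM2 cells, whereas the estrogen receptor ESR1 had 2 and 8, PGR had 7 and 2, and CDH1 had 13 and 0. KRT18 had 21530 and 25297 counts and CD44 17246 and 14048. ERBB2 (2966 and 1922) and EPCAM (361 and 355) were present at low levels. Of the markers of other cells, the leukocyte gene PTPRC had 8 and 7 counts, and the endothelial gene PECAM1 had 48 and 343, an RPKM of 0.0825 and 0.597. Whether the PECAM1 reads came from other cells in the cultures was not tested, nor was any part of such cells in the results below.

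Human cells keep separate enzyme sets for cytosolic and mitochondrial protein synthesis, and both sets are encoded in the nucleus. Several cytosolic enzymes are bound in a multisynthetase complex held together by scaffold proteins. When amino acids run short or eIF2α is phosphorylated for another reason, the transcription factor ATF4 induces amino acid synthesis genes, amino acid transporters and many of the cytosolic synthetases, whereas most mitochondrial synthetases are not known as its targets. ATF4 binds as a dimer with C/EBP family proteins to a composite DNA element.

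Most cytosolic synthetases had higher RNA levels in the LM2 column than in the parental one, whereas the mitochondrial synthetases were evenly split. All 38 genes had a mean of at least 50 counts. The counts ran from 327 (TARS3) to 17478 (TARS1) among cytosolic enzymes in MDA-MB-231, and from 521 (PARS2) to 9510 (IARS2) among mitochondrial ones. The median log2 ratio was 0.42 over the 20 cytosolic genes (interval of the median 0.19 to 0.84) and 0.00 over the 16 mitochondrial genes (-0.39 to 0.15), against a median of 0.00 over all 15440 genes at that count. The interval of a median is taken from the ordered ratios of the genes in a set. These genes share the same columns and are not replicates, so it describes the spread across genes only. The medians of the sets differed by 0.42 on the log2 scale. The log2 ratio was above 0 in 17 of 20 cytosolic and in 8 of 16 mitochondrial genes. In all 20 cytosolic genes the counting interval lay on 1 side of 0, and in 5 mitochondrial genes it held 0. This interval narrows with the count, and most cytosolic genes had more counts, so the sets cannot be compared by it. The shares of all genes above 0, or with an interval on 1 side of 0, were not computed. Over 1.5-fold higher in LM2 were 6 cytosolic enzymes (30% of them) and 1 mitochondrial enzyme (6.25%), beside 10.7% of all genes tested. Over 1.5-fold lower were 1 cytosolic and 1 mitochondrial enzyme, beside 15.5% of all genes. At the 2-fold limit of the study, 2 cytosolic enzymes were higher (4.58% of all genes were) and 1 mitochondrial enzyme was lower (6.9% of all genes were).

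**Figure D1:**
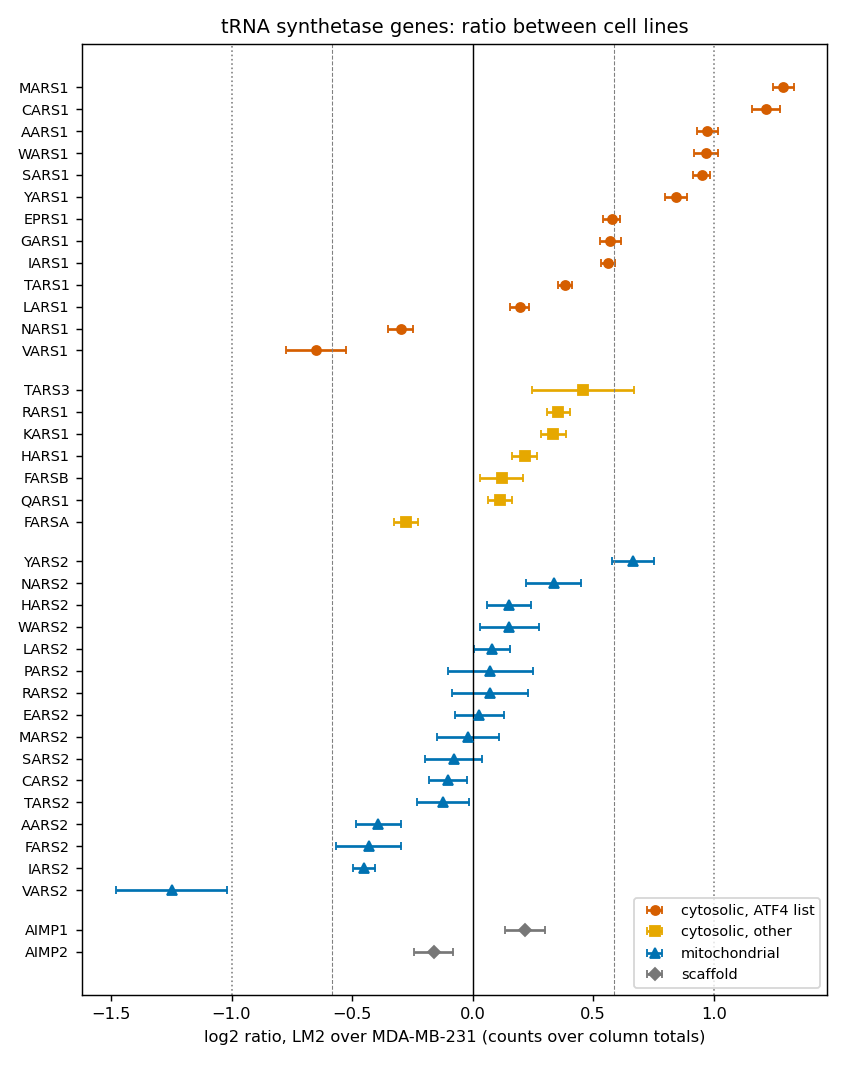
Log2 ratio of LM2 over MDA-MB-231 (x axis) for each of the 38 genes (y axis), grouped by compartment, with bars for the 95% counting interval and 1 column per cell line. Dashed lines mark 1.5-fold and dotted lines 2-fold, and only MARS1, CARS1 and VARS2 lie beyond 2-fold.

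The cytosolic set also had the higher levels. The median RPKM of the cytosolic genes was 17.3 in parental and 25.0 in LM2 cells, and that of the mitochondrial genes was 3.79 and 3.56. The highest level in MDA-MB-231 was that of TARS1, the cytosolic threonine enzyme, at RPKM 45.1, and in LM2 that of SARS1, the serine enzyme, at 74.6. IARS2, the mitochondrial isoleucine enzyme, had the highest level of its set in both lines, at 20.5 RPKM in parental and 15.0 in LM2 cells. TARS3, a further threonine enzyme of the cytosol, was the rarest apart from the valine enzymes, at an RPKM of 0.760 and 1.04. The RPKM of the valine enzymes is not comparable with that of the others. VARS1 is listed at 26135 bases and VARS2 at 20712, against 4312 and 4073 bases for their mRNAs in GENCODE release 29. Of 40 other genes that lie between VARS2 and VARS1 on chromosome 6, 39 are also listed at more than 3 times their GENCODE length, with a median of 6.99 times. This region holds the HLA genes, for which the hg19 genome contains alternative copies. The part of such copies in the counts was not tested.

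**Figure D2:**
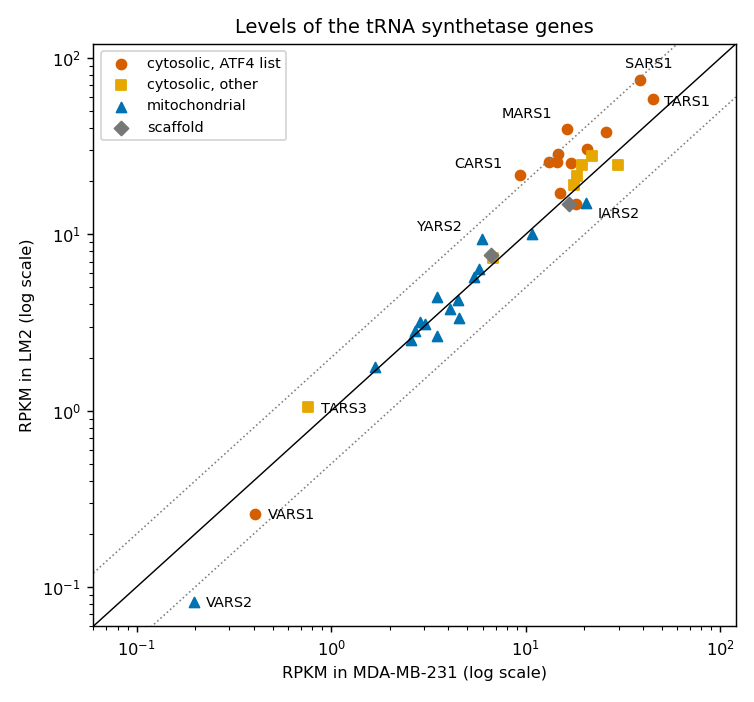
RPKM in LM2 (y axis, log scale) against RPKM in MDA-MB-231 (x axis, log scale), 1 point per gene and 1 value per cell line. The solid line marks equal levels and the dotted lines 2-fold, and most orange circles lie above the solid line while blue triangles, the mitochondrial enzymes, lie on both sides of it.

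Of the 20 cytosolic genes, 13 were placed on a list of ATF4 targets from general knowledge, and these held all 6 that were over 1.5-fold higher. Their median log2 ratio was 0.58 (0.19 to 0.97), against 0.22 (-0.28 to 0.46) for the other 7. The list was drawn up with earlier results of these data known, so its median is a description. MARS1, the methionine enzyme, had 6188 counts in parental and 14908 in LM2 cells, which is 2.44-fold higher (2.37 to 2.51). CARS1, the cysteine enzyme, had 3431 and 7859 counts and was 2.32-fold higher (2.23 to 2.42). These were the only members whose interval lay wholly above 2-fold.

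AARS1, the alanine enzyme, had 6393 counts in parental and 12383 in LM2 cells (1.96-fold higher, 1.90 to 2.02). WARS1, the tryptophan enzyme, had 4981 and 9609 counts (1.95-fold, 1.89 to 2.02). The intervals of both held 2-fold. SARS1 had 9785 and 18652 counts (1.93-fold, 1.88 to 1.98), and YARS1, the tyrosine enzyme, had 5871 and 10397 (1.79-fold, 1.74 to 1.85), both below 2-fold over the whole interval.

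A group of 3 genes lay just under 1.5-fold. EPRS1, a fusion enzyme for glutamate and proline, had 11143 and 16400 counts (1.49-fold higher, 1.46 to 1.53). GARS1, which supplies the glycine enzyme of both compartments, had 7374 and 10809 (1.49-fold, 1.44 to 1.53). IARS1, for isoleucine, had 15910 and 23187 (1.48-fold, 1.45 to 1.51). In each of them 1.5-fold lay within the counting interval. TARS1 had 17478 and 22480 counts (1.30-fold higher), and LARS1, the leucine enzyme that also acts as a leucine sensor, had 9454 and 10679 (1.14-fold higher).

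NARS1 and VARS1 were the members of this list with lower levels in LM2. NARS1, the asparagine enzyme, had 6808 counts in parental and 5465 in LM2 cells, 1.23-fold lower (1.19 to 1.27). VARS1, the valine enzyme, had 1392 and 876 counts and was 1.57-fold lower (1.44 to 1.71). Both lie among genes that were lower as a group, as described further on.

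The promoters of the members were searched for TGATGNAA, the letters of the composite element of ATF4 and C/EBP proteins, on both strands. RefSeq promoter sequences (GRCh38.p14, 250 bases before to 50 bases after the start of the gene) were at hand for 32 of the 38 genes. The letters were found in 7 of these 32, namely 6 of 16 cytosolic genes (37.5%) and 1 of 14 mitochondrial genes (7.14%). All 6 cytosolic genes were on the ATF4 list, where 10 promoters were searched (60%), and 0 of the 6 other cytosolic promoters had a match. Among all 27305 promoters of the table the share was 3.67%, and among the 11214 whose genes had a mean of at least 50 counts it was 1.69%. The ATF4 list holds genes that became known partly through such elements, so its share is no independent evidence. The 30 bases around each match are shown because the 6 cytosolic genes carry the same letters, TGATGCAA or their reverse complement TTGCATCA (0.464% of the 11214 promoters). Each is given 5′ to 3′ on the strand of the gene, with the match in capitals.
MARS1, chr12:57488053-57488082, plus strand: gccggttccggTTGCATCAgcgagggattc
CARS1, chr11:3057407-3057436, minus strand: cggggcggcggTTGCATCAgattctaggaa
AARS1, chr16:70289675-70289704, minus strand: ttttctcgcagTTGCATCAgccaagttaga
IARS1, chr9:92293692-92293721, minus strand: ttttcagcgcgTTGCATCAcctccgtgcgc
TARS1, chr5:33440956-33440985, plus strand: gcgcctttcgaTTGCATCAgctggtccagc
NARS1, chr18:57621804-57621833, minus strand: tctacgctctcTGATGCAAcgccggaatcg
YARS2, chr12:32756076-32756105, minus strand: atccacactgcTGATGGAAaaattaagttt

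These 7 genes did not all move alike. MARS1 and CARS1 had the largest ratios of the 38, AARS1, IARS1 and TARS1 were higher in LM2 by smaller amounts, and NARS1 was lower. The match began 187 bases before the annotated start in AARS1 and 197 bases before it in YARS2. In the other 5 genes it began between 13 bases before and 14 bases after that start. WARS1, SARS1, EPRS1 and GARS1, which were higher in LM2, had no match, which says only that these letters are not in this window. YARS1, LARS1, VARS1, TARS3, AARS2 and VARS2 were not searched.

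The 7 cytosolic enzymes off the list had ratios within 1.5-fold. The largest ratio was that of TARS3, with 327 counts in parental and 443 in LM2 cells (1.37-fold higher, 1.19 to 1.59). RARS1, for arginine, had 6109 and 7713 counts (1.28-fold higher) and KARS1, whose gene supplies the lysine enzyme of both compartments, had 5598 and 6969 (1.26-fold higher). HARS1, for histidine, had 5546 and 6360 counts and QARS1, for glutamine, 6488 and 6930. FARSA and FARSB encode the subunits of a single phenylalanine enzyme and went apart. FARSB had 1974 and 2117 counts, with a log2 ratio of 0.12 (0.03 to 0.21), whereas FARSA had 7231 and 5896 counts and a log2 ratio of -0.28 (-0.33 to -0.23). FARSA thus had the larger RPKM in both lines, 29.9 and 24.7 against 6.76 and 7.35 for FARSB.

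Among the 16 mitochondrial enzymes, 14 lay within 1.5-fold. YARS2, the tyrosine enzyme, was the exception on the higher side, with 1691 counts in parental and 2646 in LM2 cells (1.59-fold higher, 1.49 to 1.69), with 1.5-fold inside the interval. VARS2, the valine enzyme, had 531 and 221 counts and was 2.37-fold lower (2.02 to 2.79). The next largest ratios lay mostly on the lower side. IARS2 had 9510 and 6866 counts (1.37-fold lower, 1.33 to 1.41). FARS2, for phenylalanine, had 1093 and 800 (1.35-fold lower, 1.23 to 1.48), and AARS2, for alanine, had 2180 and 1641 (1.31-fold lower, 1.23 to 1.40). NARS2, for asparagine, had 1153 and 1436 (1.26-fold higher, 1.17 to 1.37).

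The remaining 10 mitochondrial enzymes had log2 ratios between -0.12 (TARS2) and 0.15 (HARS2). Slightly higher by the counting interval were HARS2 (1871 and 2052 counts), WARS2 (1060 and 1162) and LARS2 (2971 and 3100), the histidine, tryptophan and leucine enzymes. Slightly lower were the cysteine enzyme CARS2 (2620 and 2408) and the threonine enzyme TARS2 (1489 and 1350). The interval held 0 for EARS2 (1573 and 1583), MARS2 (1032 and 1005), PARS2 (521 and 541), RARS2 (642 and 666) and SARS2 (1201 and 1122), the enzymes for glutamate, methionine, proline, arginine and serine. Differences of this size were not detectable at these counts for the 5 genes.

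The cytosolic enzyme was compared with the mitochondrial enzyme for the same amino acid, in which the scaling between the columns cancels out. Of 17 such comparisons, which cover all 16 mitochondrial enzymes, the cytosolic log2 ratio was the larger in 16. The interval of the difference (normal approximation on log counts, counting error only) lay above 0 in 15, below 0 in 1 and held 0 in 1. The median difference was 0.55 on the log2 scale. The 17 are not all separate, since EPRS1 was compared with both EARS2 and PARS2, and FARS2 with both FARSA and FARSB. Among the 13 pairs with 1 gene for each compartment, the cytosolic ratio was the larger in 12, with a median difference of 0.60. The largest differences were those of alanine (AARS1 minus AARS2, 1.36, interval 1.26 to 1.47), cysteine (CARS1 minus CARS2, 1.32, 1.22 to 1.42) and methionine (MARS1 minus MARS2, 1.31, 1.17 to 1.44). Serine (1.03) and isoleucine (1.01) followed, and then tryptophan (0.82). The RPKM of MARS1 was 6.35 times that of MARS2 in parental and 15.7 times in LM2 cells, and that of SARS1 was 8.65 and 17.7 times that of SARS2.

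Asparagine was the exception, since NARS1 lay 0.63 below NARS2 on the log2 scale (interval of the difference -0.76 to -0.51). For histidine the interval held 0 (HARS1 minus HARS2, 0.06, -0.04 to 0.17). HARS1 and HARS2 stand head to head, it is not known whether reads were counted by strand, and 17.9% of the exon bases of HARS1 lie under exons of HARS2 in GENCODE release 29. For tyrosine the difference was 0.18, because YARS1 and YARS2 were both higher. For valine it was 0.60, although VARS1 and VARS2 were both lower.

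**Figure D3:**
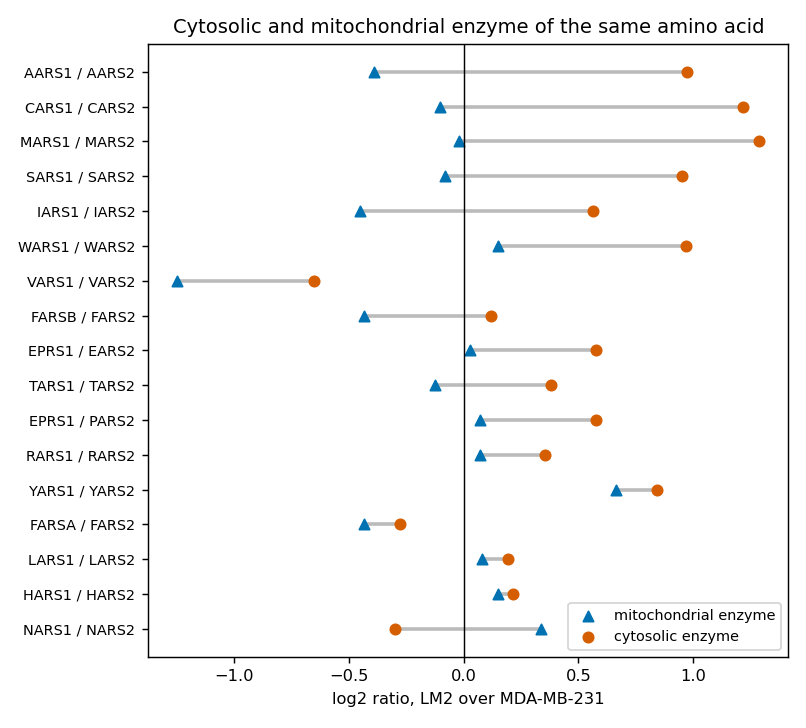
The cytosolic enzyme (orange circles) and the mitochondrial enzyme (blue triangles) for the same amino acid are placed by their log2 ratio, LM2 over MDA-MB-231 (x axis), 1 row per comparison, joined by a grey bar. The circle lies to the right of the triangle in 16 of 17 rows, and NARS1 and NARS2 are the reverse.

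Cytosolic genes were also grouped by complex and by structural class. The 7 cytosolic enzymes of the multisynthetase complex had a median log2 ratio of 0.36, from 0.11 (QARS1) to 1.29 (MARS1), and all 7 were above 0. The 13 other cytosolic genes had a median of 0.46, with 10 above 0 and 3 below. The scaffold AIMP1 had 2226 counts in parental and 2556 in LM2 cells (log2 ratio 0.22, 0.14 to 0.30), and AIMP2 had 2659 and 2346 (-0.16, -0.24 to -0.08). Of the exon bases of AIMP2, 43.4% lie under exons of EIF2AK1 on the other strand, which had 5659 and 4584 counts. Synthetases fall into a pair of structural classes with unrelated folds. Class I cytosolic enzymes had a median log2 ratio of 0.56 (9 genes) and class II enzymes 0.36 (10 genes). EPRS1, which belongs to both classes, was left out of either group. The intervals of these medians, which describe the spread across genes, were 0.11 to 1.21 and -0.28 to 0.95, each wider than this difference. The difference between the classes was not tested.

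The position of a gene on its chromosome was set beside its ratio, because blocks of neighbouring genes differ between these cell lines. For each member the median log2 ratio of the 30 nearest protein-coding genes with enough counts was taken. Mitochondrial enzymes lay close to their neighbours. The median difference from the neighbours was -0.01 on the log2 scale, and 15 of 16 lay within 0.3 of them, beside 55.3% of all 12453 genes tested so. The exception was IARS2, at 0.53 below its neighbours, beside 24.6% of all genes that lay more than 0.3 below. The 12453 genes include some with fewer counts than any member, whose ratios vary more through counting error. The shares of all genes given here and below for distance from neighbours are therefore not matched for counts. FARS2 (log2 ratio -0.43, neighbours -0.54), AARS2 (-0.39, neighbours -0.48) and VARS2 (-1.25, neighbours -1.01) all lie on chromosome 6. RARS2 lies on chromosome 6 as well, but among neighbours with higher levels in LM2 (0.07, neighbours 0.365). YARS2 (0.66, neighbours 0.58) lies on chromosome 12.

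The cytosolic genes on the ATF4 list lay above their neighbours. The median difference was 0.68 on the log2 scale, and 11 of 13 were more than 0.3 above, beside 20.1% of all genes. For SARS1 and YARS1, 0 of the 30 neighbours had a larger ratio, and for AARS1 and IARS1 1 had. GARS1 was higher in LM2 although its neighbours had a median of -0.37. NARS1, on chromosome 18, had a log2 ratio of -0.30 among neighbours with a median of -0.77, and thus lay 0.48 above them. Exceptions were LARS1, 0.20 above its neighbours, and VARS1, which had the same value as its neighbours (-0.65). The neighbours of VARS1, like those of VARS2, include genes of the stretch listed at several times their GENCODE length. Their counts are open to the same question, so the likeness to neighbours is not informative for these 2 genes. MARS1 lies on chromosome 12 among neighbours with a median of 0.61 and lay 0.68 above them, and CARS1 lay 0.87 above a neighbourhood of 0.34. With the neighbour median subtracted, 0 cytosolic genes were over 2-fold higher and 8 were over 1.5-fold higher. Without the 14 synthetases of both compartments in neighbourhoods beyond 0.3, these counts were 0 and 4. The shares of all genes past these folds were not computed under either setting, so the counts have no background beside them.

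The 7 other cytosolic genes had a median difference from their neighbours of 0.04, and 6 of the 7 lay within 0.3. The exception was TARS3, whose log2 ratio of 0.46 stood 0.47 below a neighbourhood median of 0.92 on chromosome 15. As a description across genes, which share the same columns and in part the same neighbours, Pearson's r was taken between the ratio of a gene and the median of its neighbours. It was 0.88 over the 16 mitochondrial genes, 0.88 over the 13 genes of the ATF4 list and 0.82 over the 7 other cytosolic genes. VARS2 is included in the first value and VARS1 in the second. Over all 12453 genes it was 0.29, but these include genes with fewer counts than any member. The copy number of these regions was not measured.

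**Figure D4:**
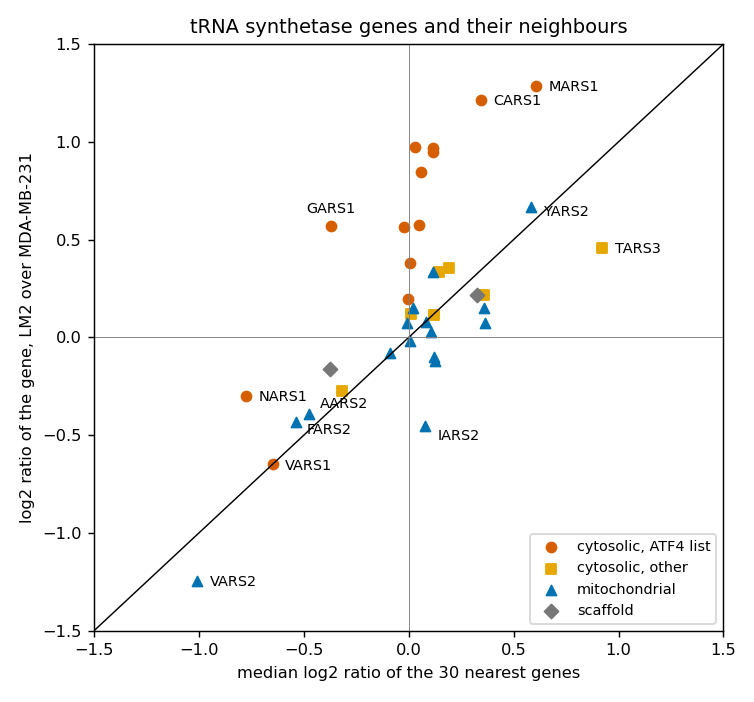
Log2 ratio of each gene (y axis) against the median log2 ratio of its 30 nearest genes (x axis), LM2 over MDA-MB-231, with a line for equal values. Mitochondrial enzymes (blue triangles) follow the line apart from IARS2, while 11 of 13 cytosolic genes of the ATF4 list (orange circles) lie more than 0.3 above it.

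Partner genes of the synthetases were taken from lists, and their ratios were not set beside those of their chromosome neighbours. Of 12 genes that act around tRNA charging, 9 had log2 ratios above 0, with a median of 0.20, and 1, XPOT, was more than 1.5-fold higher (8.33%, beside 10.7% of all genes). XPOT, which exports tRNA from the nucleus, had 8185 counts in parental and 17396 in LM2 cells (log2 ratio 1.11, 1.07 to 1.14). PSTK, a kinase that acts on the serine loaded onto selenocysteine tRNA, had 307 and 414 counts (log2 ratio 0.45, 0.23 to 0.67), and TRNT1, which adds the CCA end to tRNAs, had 760 and 948 (0.34, 0.20 to 0.48).

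Of 5 cytosolic elongation factors, all had log2 ratios above 0, with a median of 0.46. Of these, 1 was over 1.5-fold higher (20%, beside 10.7% of all genes). This was EEF2, which moves the ribosome along the mRNA (49467 and 81313 counts, log2 ratio 0.74). Of 9 mitochondrial translation factors, 6 were above 0 (median 0.17) and 1 was over 1.5-fold higher (11.1%, near the 10.7% of all genes). This was TSFM, the exchange factor of the mitochondrial elongation factor TUFM, with 765 and 1431 counts (log2 ratio 0.92, 0.79 to 1.05).

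Of 7 genes of the ATF4 axis, 5 were more than 1.5-fold higher (10.7% of all genes were) and 1, EIF2AK4, more than 1.5-fold lower (15.5% of all genes were). ATF4 itself had 12655 counts in parental and 32299 in LM2 cells (log2 ratio 1.37, 1.34 to 1.40). ASNS, asparagine synthetase, had 1035 and 4082 (2.0, 1.90 to 2.10), and SESN2, a leucine-binding inhibitor of mTORC1 signalling, had 789 and 2056 (1.40, 1.28 to 1.52). EIF2AK4 (GCN2), the kinase that senses uncharged tRNA, had 5800 and 3643 counts (-0.65, -0.71 to -0.59). DDIT3, which encodes the stress factor CHOP and overlaps MARS1 over 2.13% of the exon bases of MARS1 on the other strand, had 1595 and 3610 (1.20, 1.11 to 1.28). It thus lies in the neighbourhood of MARS1, where the median log2 ratio was 0.61.

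Counts of the transcripts of a gene may share reads, so isoforms were not compared. Of the 15 members with several transcripts at a mean of at least 50 counts, 14 had log2 ratios that differed by at most 0.1 between transcripts. The exception was SARS1, at 0.95 for its mRNA and 1.07 for NR_034072. KARS1 is listed as NM_001130089 (5598 and 6969 counts) and as NM_005548 (5401 and 6735 counts), with nearly the same counts. CARS1 was represented by NR_036542, a non-coding isoform, whose log2 ratio of 1.21 differed by at most 0.01 from those of its 4 mRNAs. Some members share bases with other genes. In SARS2, 89.5% of the exon bases lie under exons of other genes, namely 72.5% under a protein-coding gene on the same strand (ENSG00000269547) and 17.0% under MRPS12 on the other strand (2489 and 2388 counts). In YARS1, 12.2% lie under S100PBP (1856 and 2047 counts), and 7.31% of CARS1 lie under CARS1-AS1 (521 and 1174 counts).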

How the data were processed

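The authors demultiplexed the reads with bcl2fastq and aligned them with TopHat2 (version 2.0.13) to hg19 (GRCh37), per the labels. The authors deposited read counts per transcript, used here unchanged, and RPKM values, which equal the count over listed length and column total to a relative difference of at most 4.98e-06. The sources used here do not name the counting software, the annotation or whether strand was used.

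Transcripts were paired with symbols through RefSeq (GRCh38.p14) and GENCODE release 29 tables, for 62331 of 65423 transcripts. No hg19 coordinate was converted. With 1 column per cell line, edgeR's test could not be run. Ratios of counts over totals were given with Clopper-Pearson intervals at 95%, which cover counting error only, and medians with order-statistic intervals. Genes counted in summaries had a mean of at least 50 counts, 1 transcript each. The calculation was tested on simulated counts. Every member was named, with up to 4 partner genes a list, those with the largest ratios in either direction. EIF2AK4 was named outside this rule after its values were seen, and some partner genes are not reported here. Members and lists were chosen with earlier results of these data known. Neighbours were the 30 nearest genes in RefSeq order. Alternatives were TMM and upper-quartile factors (edgeR 4.0.16), size factors (DESeq2 1.42.0), pseudocounts on RPKM, other count minimums, transcripts and member sets. Python 3.11.15, scipy 1.17.1 and R 4.3.3 were used.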

Additional observations from a re-analysis of the deposited data

How the results depend on the processing

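The median log2 ratio of cytosolic synthetases lay between 0.35 and 0.47 under 15 alternatives, of which 3 (without VARS1 and VARS2, and both that concern neighbours) were chosen after seeing the data. That of mitochondrial synthetases lay between -0.06 and 0.03, and their difference between 0.35 and 0.47. Of 105 recomputed summary values, 97 stayed within their limits. For a median the limit was its interval, and for the difference of medians the half-widths of both intervals combined. For a count of genes it was a 1.5-fold change. Some of the 105 could not move, so the tally overstates how firm the values are. A change of scaling cancels out in the difference, and no member fell under the other count minimums. The cytosolic count over 2-fold higher went from 2 to 0 with the neighbour median subtracted and to 0 without members in neighbourhoods beyond 0.3. The mitochondrial count over 1.5-fold higher went from 1 to 0 under both. The mitochondrial count over 1.5-fold lower went from 1 to 0 under both, with log2(RPKM + 1) and without VARS1 and VARS2, since VARS2 is that gene. With the longest transcript, or the median over transcripts, SARS1 also passed 2-fold (3 genes). Among the members' own ratios, EARS2 changed sign (main 0.03, lowest -0.04). Without the 12 transcripts with most counts the scaling shifted all log2 ratios by -0.07.

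No paired analysis was possible because the table holds 1 column per cell line, and leaving out a replicate was not run for the same reason. Spread between cultures could not be estimated, and the counting intervals of 5 of 16 mitochondrial enzymes held 0.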

Other observations

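The letters TGATGNAA were found in the promoters of 189 genes that passed the minimum of 50 counts, members included. Of these, 43 (22.8%) were over 1.5-fold higher in LM2, and their median log2 ratio was 0.14. The share over all 15440 genes was 10.7%, but these include genes without a promoter sequence at hand. The share over only the genes whose promoters were searched was not computed. Of the 7 genes of the ATF4 axis, ASNS and CHAC1 had a match, and 0 of 10 promoters of tRNA charging partners had one.

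A listed length of more than 3 times the GENCODE length was found for 258 of 14953 genes outside the stretch between VARS2 and VARS1 (1.73%). Within that stretch 30 of 40 genes (75%) were over 1.5-fold lower in LM2, beside 15.5% of all genes, and their median log2 ratio was -0.92.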
